A study of Homo sapiens with 9 samples.

Results

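KLF1, NFE2, GFI1B, BCL11A, IKZF1 and ZBTB7A encode 6 transcription factors of red cell maturation, and their loci were read in assay for transposase-accessible chromatin (ATAC-seq) peak lists of K562 cells with 3 STAG2 genotypes. A peak was taken as a member where its centre lay in the body of 1 of the 6 genes or within 10 kb of it (GENCODE release 44 on GRCh37). Of 2164004 peak rows in the 9 lists, 589 were members, and of the 50000 strongest peaks of each list, which are the peaks with the smallest p in that list, 174 in all were members. Overlapping member peaks of the 9 libraries were merged into 37 sites, of 106131 merged regions in the genome, and each site is named for the distance of its centre from the canonical start of its gene, counted along transcription.

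K562 is a human chronic myeloid leukaemia cell line with erythroid and megakaryocytic features. The STAG2 protein is part of cohesin, a ring-shaped complex that keeps sister chromatids paired and forms chromatin loops. The groups were the parental line with no STAG2 mutation (wild type), 1 CRISPR-Cas9 edited line with STAG2 R614* +/- (heterozygous) and 1 edited line with STAG2 R614* -/- (homozygous), with 3 libraries of 50000 cells each. By their labels the homozygous cells grew attached and were passaged with trypsin, so that genotype, editing, line and growth mode cannot be told apart. They do not say that the libraries of a line came from separate cultures, and p-values then measure only the spread between these libraries.

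KLF1 and NFE2 are activators of globin and other red cell genes, and NFE2 binds DNA as a dimer with a small MAF protein. GFI1B, BCL11A, IKZF1 and ZBTB7A act mainly through recruited corepressors: GFI1B brings the LSD1 and CoREST complex, and BCL11A and ZBTB7A are the known repressors of the fetal globin genes, both linked to the NuRD complex. In red cell precursors BCL11A depends on an enhancer in its second intron, made of elements named for their distance of 55, 58 and 62 kb from the start.

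The sequences below are those of the sites on which the account turns, each around the middle of its peaks, on the forward strand of GRCh37. NFE2 -3.5 kb and IKZF1 +79.7 kb were among the strongest sites in all 9 libraries, and GFI1B +6.0 kb, BCL11A +3.3 kb and IKZF1 +92.9 kb were in all 3 wild type lists and in 0 of 3 homozygous lists. Capitals mark matches, on either strand, to the letter patterns described with them after the last sequence. The stretch at IKZF1 +92.9 kb is the part of its window outside annotated transcript ends, and it holds no match, while its searched window of 300 bases holds 1 RUNX and 1 BCL11A match outside that stretch.
NFE2 -3.5 kb, chr12:54698079-54698378: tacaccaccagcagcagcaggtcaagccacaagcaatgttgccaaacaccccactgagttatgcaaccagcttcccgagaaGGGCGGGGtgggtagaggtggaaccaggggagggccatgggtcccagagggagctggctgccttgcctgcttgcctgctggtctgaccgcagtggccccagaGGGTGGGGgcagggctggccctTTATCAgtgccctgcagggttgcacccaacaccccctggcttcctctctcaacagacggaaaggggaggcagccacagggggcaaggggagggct
IKZF1 +79.7 kb, chr7:50423788-50424087: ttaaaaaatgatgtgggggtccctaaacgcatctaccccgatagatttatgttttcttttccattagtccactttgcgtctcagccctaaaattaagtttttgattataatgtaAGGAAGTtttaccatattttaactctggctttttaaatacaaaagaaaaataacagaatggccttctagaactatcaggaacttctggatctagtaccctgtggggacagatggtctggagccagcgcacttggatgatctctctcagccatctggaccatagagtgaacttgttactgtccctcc
GFI1B +6.0 kb, chr9:135859931-135860230: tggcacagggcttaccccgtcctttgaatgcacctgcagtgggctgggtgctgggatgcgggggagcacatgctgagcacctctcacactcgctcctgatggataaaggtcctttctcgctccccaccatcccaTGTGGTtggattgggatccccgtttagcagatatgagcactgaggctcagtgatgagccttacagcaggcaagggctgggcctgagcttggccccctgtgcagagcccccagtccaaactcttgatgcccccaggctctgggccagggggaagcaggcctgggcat
BCL11A +3.3 kb, chr2:60777444-60777743: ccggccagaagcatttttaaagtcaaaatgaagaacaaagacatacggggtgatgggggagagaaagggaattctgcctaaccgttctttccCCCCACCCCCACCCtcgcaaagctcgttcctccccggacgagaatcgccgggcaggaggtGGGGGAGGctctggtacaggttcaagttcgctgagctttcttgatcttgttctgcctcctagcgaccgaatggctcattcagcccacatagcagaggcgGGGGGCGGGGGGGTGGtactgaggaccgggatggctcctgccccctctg
IKZF1 +92.9 kb, chr7:50437143-50437230: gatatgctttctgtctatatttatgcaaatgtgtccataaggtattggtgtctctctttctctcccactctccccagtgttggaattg

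The patterns were searched on both strands of the central 300 bases of each site, with overlaps allowed. They were AGATAA or TGATAA for GATA factors, CCNCNCCC for KLF factors, TGANTCA as the AP-1 core, GCTGAGTCA as the longer NF-E2 site that contains an AP-1 core, CCGGAA or AGGAAGT for ETS factors, TGTGGT for RUNX factors and TGACCA for BCL11A. In the printed sequences the capitals mark 1 GATA and 2 KLF matches at NFE2 -3.5 kb, 1 ETS match at IKZF1 +79.7 kb, 1 RUNX match at GFI1B +6.0 kb and 7 KLF matches, some of them overlapping, at BCL11A +3.3 kb.

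A GATA match was present in 12 of the 37 sites (32.4%) and in 30.9% of all regions, and 11 of those 12 sites were distal. A KLF match was present in 20 sites (54.1%) and in 39.1% of regions. The KLF pattern also matches plain runs of C, as at ZBTB7A +23.2 kb. The regions were not matched to the sites for base content or promoter share, and the difference was not tested. AP-1 cores (7 sites, 18.9%, against 17.9% of regions), RUNX (8 sites, 21.6%, against 22.8%) and ETS matches (5 sites, 13.5%, against 14.7%) were held at about the share of all regions. The long NF-E2 pattern occurred in 2 sites, BCL11A +99.5 kb and IKZF1 +83.6 kb, and in 2.05% of regions, and the BCL11A pattern occurred in 4 sites (10.8%) and in 15.0% of regions. These matches describe the letters of the reference and do not show that a factor was bound.

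The lists held 181407 to 319697 peaks each, and the p at the 50000th peak differed between them, from 4.95 on the −log10 scale in homozygous library 2 to 6.73 in homozygous library 3. Strength is therefore given as the percentile of a peak among the 50000 strongest of its own list, where 100 is the strongest and 0 stands for absence. Values on the −log10 p scale are given beside it but are not on an equal scale between lists. At the 50000th peak they were 5.49 and 4.95 in homozygous libraries 1 and 2, and 6.03 to 6.44 in wild type. The lists hold no read counts, and read depth is unknown. Wild type library 3 and heterozygous library 1 had 46.0% of their intervals in common to the base, and wild type libraries 1 and 2 had 23.3%, against 0.223% to 1.17% for the other 34 pairs. At the 6 genes, 16 of the 60 member peaks of wild type library 3 were identical in heterozygous library 1, so that these lists are not independent and results are also given without that pair. The labelled cell type was checked by peaks within 1 kb of a start: 4 to 6 of 7 erythroid marker genes had one in each library (GATA1 had none in any), against 0 of 4 B cell, 0 to 1 of 4 T cell, 1 to 2 of 4 monocyte, 2 to 3 of 4 mesenchymal and 3 of 4 epithelial markers.

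Of the 37 sites, 10 lay at a promoter of a member, within 1 kb of a start of a protein-coding transcript, 3 lay at the start of another gene only, and 24 were distal. Found in all 9 libraries were 6 sites (16.2%, against 18.1% of all regions): KLF1 -3.7 kb, NFE2 -3.5 kb, NFE2 -6.2 kb, GFI1B -34.0 kb, IKZF1 +79.7 kb and ZBTB7A +0.8 kb. Another 10 sites (27.0%, against 30.4% of regions) were found in 1 library. Of the 10 promoter sites, wild type libraries held 8 each, heterozygous libraries 8, 6 and 7, and homozygous libraries 6, 2 and 4. Distal sites numbered 12, 13 and 12 of 24 in wild type, 14, 9 and 8 in heterozygous and 12, 8 and 11 in homozygous libraries. The difference between promoter and distal counts was not tested. The share of all promoter regions present in each library was not taken, so these counts have no matching background. Of all regions near a start of a protein-coding transcript, 1.69% were in all 3 homozygous and 0 of 3 wild type libraries. The reverse held for 1.19%. By percentile, which is another measure, values did not overlap and lay higher in homozygous libraries at 13.4% and higher in wild type at 8.24%. No BCL11A, KLF1, NFE2 or IKZF1 promoter site was in all 9 libraries. Of all protein-coding genes, 44.9% had a promoter peak in all 9 libraries and 31.6% had one in 0 libraries.

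**Figure D1:**
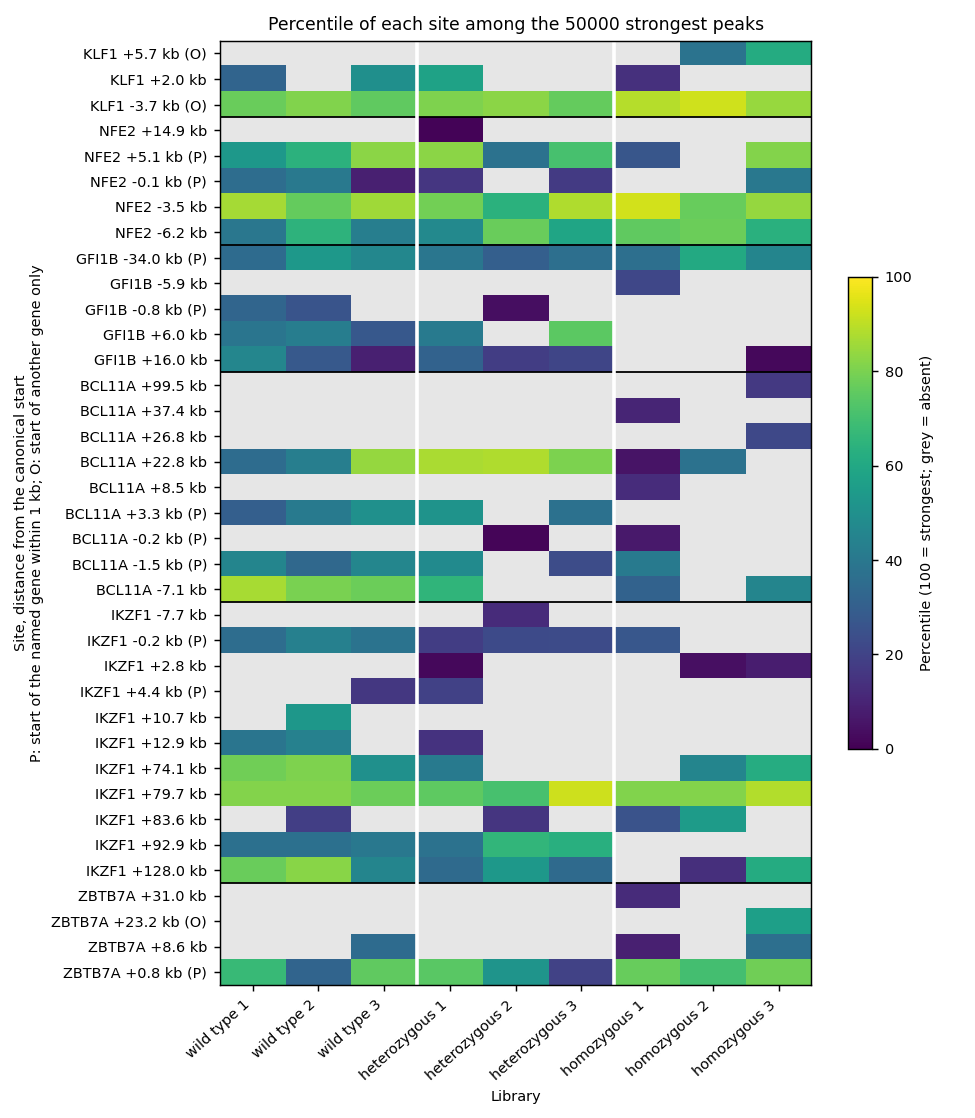
Percentile of each of the 37 sites (rows, named by distance in kb from the canonical start) among the 50000 strongest peaks of each of the 9 libraries (columns), with grey for absence. The 6 rows with colour in every column are the sites found in all libraries, and the grey run in the homozygous columns covers IKZF1 +92.9 kb, GFI1B +6.0 kb and BCL11A +3.3 kb.

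The number of strongest peaks per gene was compared over the 3 genotypes with an exact permutation test over the 280 assignments of libraries to groups, run on 18504 protein-coding genes and adjusted by Benjamini-Hochberg. No member passed, and 0 of 18504 genes (0.0%) did, with a smallest adjusted p of 0.499. The smallest exact p that 280 assignments allow is 0.00357, so a gene could pass only if a large number of genes reached it together. The lack of passing genes therefore does not show that peak numbers were alike. At an unadjusted exact p of at most 0.05 were 1 of the 6 members, GFI1B, and 1525 genes (8.24%). IKZF1 had 6, 8 and 6 strongest peaks in wild type, 8, 6 and 5 in heterozygous and 4, 5 and 4 in homozygous libraries. Its mean was 6.67 ± 1.15 in wild type and 4.33 ± 0.577 in homozygous libraries (SD, n = 3, exact p = 0.157, adjusted p = 0.849). GFI1B had 4, 5 and 3 in wild type, 3, 3 and 4 in heterozygous and 2, 1 and 2 in homozygous libraries. Its mean was 4.0 ± 1.0 in wild type and 1.67 ± 0.577 in homozygous libraries (SD, n = 3, exact p = 0.0464, adjusted p = 0.573).

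ZBTB7A went the other way, with 1, 1 and 2 peaks in wild type, 1 in each heterozygous and 3, 2 and 3 in homozygous libraries (exact p = 0.0714, adjusted p = 0.664), and the groups met at 2 peaks. BCL11A had 4 peaks in each wild type library, 4, 2 and 3 in heterozygous and 7, 1 and 3 in homozygous libraries, the widest spread of the 6 genes within a genotype. KLF1 had 1 or 2 peaks in every library and NFE2 2 to 5. The median difference between homozygous and wild type means was -0.67 peaks over the 6 genes and 0.0 over all genes. In the full lists GFI1B had 10, 9 and 6 peaks in wild type and 11, 8 and 11 in homozygous libraries. The homozygous mean minus the wild type mean was 1.67 peaks in the full lists and 0.33 with the 20000 strongest peaks, so that the lower GFI1B count was not seen at either number of peaks.

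**Figure D2:**
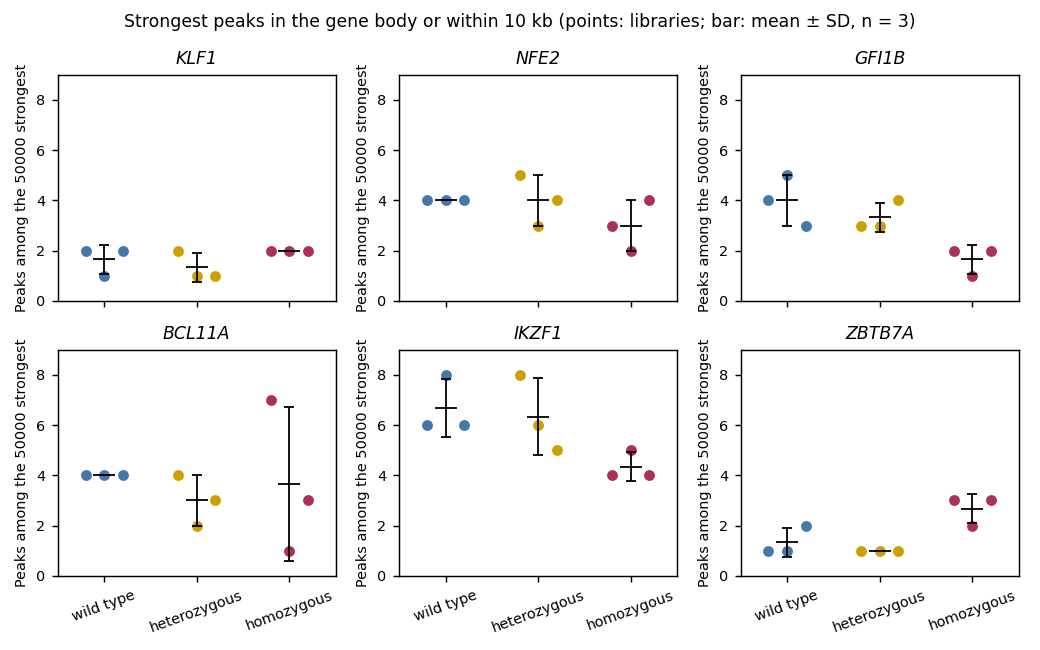
Number of the 50000 strongest peaks in the body or within 10 kb of each gene, 1 point per library, with the mean and SD of 3 libraries. Homozygous counts are 2, 1 and 2 at GFI1B, 4, 5 and 4 at IKZF1 and 7, 1 and 3 at BCL11A.

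The separation of genotypes was then read site by site. A site was taken as separating a pair of genotypes where all 3 libraries of one held it among their 50000 strongest peaks and 0 of 3 of the other did. Between homozygous and wild type, 3 of 35 sites did so, all 3 present in wild type only: GFI1B +6.0 kb, BCL11A +3.3 kb and IKZF1 +92.9 kb. The share was 8.57% of the sites for wild type only and 0% for homozygous only, against 3.47% and 2.75% of all regions and 6.22% in either direction. On chromosomes 2, 7 and 9, which carry BCL11A, IKZF1 and GFI1B, 4.16%, 3.83% and 2.98% of regions were in wild type only. In homozygous only were 2.42%, 2.1% and 2.31%. On chromosome 19, which carries KLF1 and ZBTB7A, the shares were 0.552% for wild type only and 5.15% for homozygous only. Without wild type library 3 the number was 5, without homozygous library 1 it was 7 (5 in wild type only, 2 in homozygous only), without homozygous library 3 it was 5, and without wild type library 3 and heterozygous library 1 together it was 5, where fewer libraries had to be alike.

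Between homozygous and heterozygous, 1 of 36 sites separated, IKZF1 +92.9 kb, present in heterozygous only (3.41% of regions were present only in heterozygous, 3.16% only in homozygous and 6.57% in either direction). Between heterozygous and wild type, 0 of 29 sites did, against 0.937% of regions (0.515% only in wild type and 0.423% only in heterozygous). The number for homozygous and heterozygous was 3 without heterozygous library 2 or homozygous library 1 and 2 without homozygous library 2 or 3, and that for heterozygous and wild type was 2 without heterozygous library 1. The 3 comparisons share libraries and are not independent of each other.

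By percentile, 7 of the 35 sites had homozygous and wild type values that did not overlap, against 16.7% of regions. The homozygous libraries were lower at 6 of them (17.1% of the sites, against 9.31% of regions) and higher at 1 (2.86%, against 7.37%). The 6 lower sites were GFI1B +6.0 and +16.0 kb, BCL11A +3.3 and -7.1 kb and IKZF1 -0.2 and +92.9 kb, and the higher site was KLF1 -3.7 kb. The background differed between chromosomes. On chromosome 19, which carries KLF1 and ZBTB7A, 21.7% of regions were higher in homozygous and 2.76% were higher in wild type. On chromosomes 2, 7 and 9, which carry BCL11A, IKZF1 and GFI1B, 10.2%, 11.3% and 7.98% of regions were higher in wild type and 6.03%, 5.73% and 7.46% higher in homozygous. The number of such sites was 12 without wild type library 3, 11 without homozygous library 1 and 13 without homozygous library 3. It was 12 (10 of them lower in homozygous) without wild type library 3 and heterozygous library 1. Fewer libraries make non-overlap easier by construction. The share of all regions was not taken again with libraries left out, here or for the separation counts above, so these numbers cannot be read against it.

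Against heterozygous libraries, the homozygous percentiles did not overlap at 4 sites: they were higher at KLF1 -3.7 kb and lower at GFI1B +16.0 kb, BCL11A +22.8 kb and IKZF1 +92.9 kb (7.54%, 8.97% and 16.5% of regions were higher in homozygous, higher in heterozygous, and either). Heterozygous percentiles lay below the wild type ones at 3 sites, BCL11A -7.1 kb, IKZF1 -0.2 kb and IKZF1 +74.1 kb, and above them at 0 sites (3.66% of regions were higher in wild type, 3.68% higher in heterozygous and 7.34% either). In the exact permutation test over the 3 genotypes, 4 of the 37 sites had an unadjusted p of at most 0.05 (11.1% of regions did): IKZF1 +92.9 kb, BCL11A +22.8 kb, KLF1 -3.7 kb and IKZF1 -0.2 kb. After Benjamini-Hochberg adjustment over 106131 regions none of the 37 and none of the regions (0.0%) had an adjusted p under 0.05, the smallest exact p that the design allows being 0.00357 and the smallest adjusted p 0.374.

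KLF1, an activator that binds CACCC boxes of many red cell genes, spans chr19:12995236-12998015 on the reverse strand and had no strongest peak within 1 kb of its start in any library. In the full lists weak peaks lay there in heterozygous library 1 (4.31 on the −log10 p scale) and homozygous libraries 1 to 3 (2.77, 2.78 and 3.18). They lay there in 0 of 3 wild type lists. These were not 1 shared peak. That of homozygous library 3 (chr19:12996880-12997379) did not overlap those of homozygous libraries 1 and 2 (chr19:12997791-12998290 and chr19:12997794-12998293). With full lists, 0 merged sites at the 6 genes were present in homozygous only against wild type. The site inside the gene, KLF1 +2.0 kb in intron 2 (chr19:12995678-12996284), had percentiles of 32.3, 0 and 49.7 in wild type, 57.8, 0 and 0 in heterozygous and 14.0, 0 and 0 in homozygous libraries. It was therefore present and absent within each genotype, and a peak was there in all 9 full lists at 4.0 to 10.9 on the −log10 p scale.

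The strongest site near KLF1 belongs to the start of GCDH, a mitochondrial enzyme of lysine breakdown, at KLF1 -3.7 kb (chr19:13001339-13002112). Its percentiles were 77.2, 81.1 and 75.6 in wild type, 80.5, 82.5 and 76.5 in heterozygous and 88.8, 92.7 and 84.7 in homozygous libraries. Every homozygous value was above all 6 others (exact permutation p = 0.0214, adjusted p = 0.374). On the −log10 p scale the same peaks overlapped, at 13.5 to 15.6 in wild type and 14.5 to 16.2 in homozygous libraries, and their fold enrichment was 7.86, 8.39 and 8.29 in wild type and 7.81, 8.27 and 7.51 in homozygous libraries. The higher place was thus a place within the list, and by fold enrichment the groups overlapped. At KLF1 +5.7 kb (chr19:12991989-12992623), the start of the lysosomal nuclease gene DNASE2, a strongest peak was present in homozygous libraries 2 and 3 only, at percentiles 38.1 and 61.6.

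NFE2 lies at chr12:54685895-54694799 on the reverse strand, head to head with COPZ1, which encodes a coat protein of transport vesicles. The shared start, NFE2 -0.1 kb (chr12:54694525-54695214), had percentiles of 35.9, 40.5 and 8.90 in wild type, 15.8, 0 and 16.9 in heterozygous and 0, 0 and 39.9 in homozygous libraries, and was in all 9 full lists. The promoter of the inner NFE2 starts, NFE2 +5.1 kb in intron 1 (chr12:54689386-54689986), was stronger, at 53.2, 64.2 and 82.8 in wild type, 82.7, 37.8 and 71.0 in heterozygous and 26.6, 0 and 81.6 in homozygous libraries. At both promoters the homozygous libraries spread over the whole range of the others, with library 3 high and library 2 absent.

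The steadiest NFE2 sites lay upstream, inside the body of COPZ1. NFE2 -3.5 kb (chr12:54697948-54698581) had percentiles of 86.4, 76.5 and 85.9 in wild type, 78.7, 64.0 and 87.9 in heterozygous and 93.1, 76.9 and 84.2 in homozygous libraries, with a fold enrichment of 6.17 to 8.59. The genotypes overlapped at this site, whose sequence above holds a GATA and 2 KLF matches (exact permutation p = 0.6, adjusted p = 1.0). NFE2 -6.2 kb (chr12:54700693-54701370) had 39.5, 64.7 and 42.9 in wild type, 47.1, 77.3 and 58.9 in heterozygous and 75.6, 77.5 and 63.4 in homozygous libraries, means of 49.0 ± 13.6, 61.1 ± 15.2 and 72.2 ± 7.64 (SD, n = 3) that did not differ beyond their spread (exact permutation p = 0.146, adjusted p = 0.682). NFE2 +14.9 kb passed in heterozygous library 1 alone, at percentile 1.07.

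GFI1B, a repressor needed for red cell and platelet formation, spans chr9:135819387-135867074 on the forward strand with its canonical start at 135854081. Its far upstream start, GFI1B -34.0 kb (chr9:135819250-135820910), is shared with TSC1, an inhibitor of mTORC1 signalling, and was present in all 9 libraries at 34.9, 53.4 and 46.3 in wild type, 39.4, 30.4 and 36.7 in heterozygous and 36.4, 60.9 and 45.6 in homozygous libraries. The canonical promoter, GFI1B -0.8 kb (chr9:135852999-135853549), was among the strongest peaks in wild type libraries 1 and 2 (32.6 and 26.0) and heterozygous library 2 (3.68) only. It was weak rather than absent elsewhere, since all 9 full lists held a peak there, at 2.86 to 7.62 on the −log10 p scale.

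Past the canonical start, both further sites were lower in the homozygous libraries. GFI1B +6.0 kb in intron 1 (chr9:135859536-135860701) had percentiles of 39.0, 42.4 and 27.6 in wild type, 40.7, 0 and 74.8 in heterozygous and 0, 0 and 0 in homozygous libraries (exact permutation p = 0.193, adjusted p = 0.682). The heterozygous libraries spanned the range of both other groups. In the full lists the peak was at 8.21, 9.04 and 8.05 on the −log10 p scale in wild type and at 5.10, 4.49 and 6.09 in homozygous libraries. A peak was thus called there in every homozygous library. The merged site joins peaks that lay apart from each other. Under the stricter overlap, where a peak had to cover much of the central 500 bp, it was in 1 wild type, 2 heterozygous and 0 homozygous lists. Neither the separation nor the non-overlap from wild type was kept under that choice.

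GFI1B +16.0 kb, downstream of the gene, had 45.9, 27.9 and 8.91 in wild type, 31.5, 18.0 and 20.9 in heterozygous and 0, 0 and 2.19 in homozygous libraries, with every homozygous value below the 6 others (exact permutation p = 0.0714, adjusted p = 0.522). On the −log10 p scale wild type library 3 (6.82) and homozygous library 3 (6.86) met. GFI1B -5.9 kb was among the strongest peaks in homozygous library 1 alone, at 21.2.

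BCL11A lies at chr2:60677655-60781602 on the reverse strand, with its canonical start at 60780789 and 16 annotated starts of protein-coding transcripts. At the canonical start, BCL11A -0.2 kb (chr2:60780545-60781460), a strongest peak occurred in heterozygous library 2 (1.26) and homozygous library 1 (6.81) only. The promoter site 1.5 kb upstream, BCL11A -1.5 kb (chr2:60781807-60782843), had percentiles of 45.7, 33.8 and 45.9 in wild type, 47.8, 0 and 23.4 in heterozygous and 40.8, 0 and 0 in homozygous libraries. The site of the inner starts, BCL11A +3.3 kb in canonical intron 1 (chr2:60777133-60777883), had 30.4, 41.3 and 50.4 in wild type, 51.5, 0 and 37.4 in heterozygous and 0, 0 and 0 in homozygous libraries (exact permutation p = 0.121, adjusted p = 0.680). In the full lists this peak was at 7.36, 8.89 and 10.2 on the −log10 p scale in wild type, 10.2, 5.48 and 7.93 in heterozygous and 4.71, 4.80 and 4.80 in homozygous libraries, and the homozygous values lay below the 6 others.

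A pair of distal BCL11A sites was strong in part of the libraries. BCL11A -7.1 kb (chr2:60787295-60788581), upstream of the gene, had percentiles of 87.0, 80.0 and 77.5 in wild type, 65.4, 0 and 0 in heterozygous and 31.5, 0 and 45.4 in homozygous libraries, so that both mutant lines lay below every wild type value (exact permutation p = 0.0786, adjusted p = 0.550). Its fold enrichment was 9.79, 8.98 and 8.87 in wild type, 7.68, 4.15 and 3.76 in heterozygous and 4.99, 3.82 and 6.32 in homozygous libraries. BCL11A +22.8 kb in intron 2 (chr2:60757418-60758625) had 35.2, 42.7 and 84.3 in wild type, 87.4, 88.2 and 80.1 in heterozygous and 5.13, 37.7 and 0 in homozygous libraries (exact permutation p = 0.0179, adjusted p = 0.374). Here the heterozygous libraries were high and even (85.3 ± 4.46, SD, n = 3), the homozygous ones low (14.3 ± 20.4), and the wild type ones spread between them (54.1 ± 26.4). Wild type library 3, the highest of its group, is the one that has intervals in common with heterozygous library 1.

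The intronic enhancer of BCL11A was not among the strongest peaks. In windows of 1 kb to each side of the +55, +58 and +62 elements (chr2:60724789-60726789, chr2:60721789-60723789 and chr2:60717789-60719789) there were 0 strongest peaks in 27 combinations of element and library, and full-list peaks in 6 of the 27. The +55 window held one in wild type library 2 and heterozygous library 2, and the +62 window in homozygous library 1. The +58 window held one in wild type library 3, heterozygous library 1 and homozygous library 2. In wild type library 3 and heterozygous library 1, the pair with intervals in common, the strongest +58 peak was the same interval to the base (chr2:60721897-60722396). All 6 were weak, at 2.55 to 4.66 on the −log10 p scale and 2.55-fold to 3.90-fold enrichment, and the best of them ranked 75504th in its list. Of 51895 windows of the same length in genes of chromosome 2, 12.5% to 21.3% held a full-list peak and 3.32% to 3.68% a strongest peak, depending on the library. Whether the 6 of 27 differ from the share of other windows in genes was not tested.

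The remaining BCL11A sites were each found in 1 homozygous library: +8.5 kb (12.8) and +37.4 kb (10.3) in library 1, and +26.8 kb (21.7) and +99.5 kb (16.4) in library 3. None was in the strongest peaks of a wild type or heterozygous library.

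**Figure D3:**
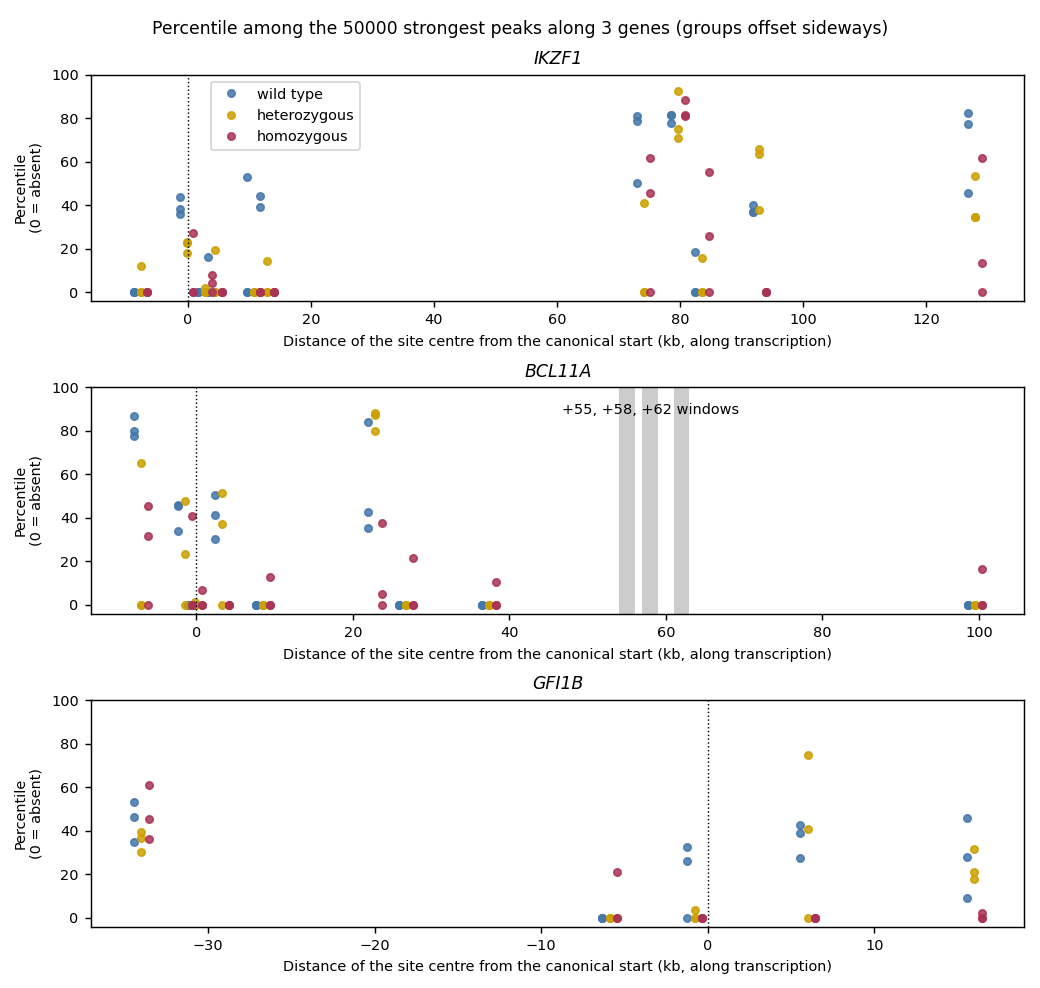
Percentile of each site (0 is absent) against its distance in kb from the canonical start along transcription, for IKZF1, BCL11A and GFI1B, with 1 point per library. The grey bands of the BCL11A panel are the +55, +58 and +62 windows, which hold no point, and the homozygous points of IKZF1 +92.9 kb lie at 0 while those of IKZF1 +79.7 kb lie at 81.0 to 88.5.

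IKZF1 encodes Ikaros, a zinc finger factor of lymphoid and early red cell development that associates with NuRD, and it spans chr7:50343664-50472799 on the forward strand. Its main promoter, IKZF1 -0.2 kb (chr7:50343326-50344967), had percentiles of 35.7, 43.7 and 38.1 in wild type, 18.0, 22.5 and 23.0 in heterozygous and 27.1, 0 and 0 in homozygous libraries. Both mutant lines lay below every wild type value, with means of 39.2 ± 4.12, 21.2 ± 2.76 and 9.04 ± 15.7 (SD, n = 3, exact permutation p = 0.025, adjusted p = 0.374). On the −log10 p scale the 3 groups were 7.89 to 9.21, 6.73 to 7.18 and 4.22 to 6.39, and did not overlap. By fold enrichment they were 4.46 to 4.60, 4.07 to 4.35 and 3.19 to 4.46, and the wild type and homozygous values met. With peaks ranked by fold enrichment the site was in 0 wild type, 0 heterozygous and 1 homozygous list. A second promoter site, IKZF1 +4.4 kb, was in wild type library 3 (16.1) and heterozygous library 1 (19.5), the pair with intervals in common, and in 0 others.

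The distal IKZF1 sites behaved unlike each other. IKZF1 +79.7 kb in intron 3 (chr7:50423312-50424804) was strong in every library, at 81.3, 81.5 and 77.7 in wild type, 75.0, 70.8 and 92.5 in heterozygous and 81.0, 81.5 and 88.5 in homozygous libraries (exact permutation p = 0.789, adjusted p = 1.0). Some 13 kb on in the same intron, IKZF1 +92.9 kb (chr7:50436780-50437644) had 36.8, 36.9 and 40.0 in wild type, 37.5, 65.8 and 63.3 in heterozygous and 0, 0 and 0 in homozygous libraries (exact permutation p = 0.00714, adjusted p = 0.374). In the full lists the peak was at 8.0, 8.73 and 9.07 on the −log10 p scale in wild type, 8.69, 11.0 and 10.8 in heterozygous, and in the homozygous lists it was found in library 3 only, at 4.17. This was the one site of the 37 that separated homozygous libraries from both other genotypes, and short annotated transcripts of IKZF1 end in it. It was the one of the 3 separated sites that was still absent from all homozygous lists when 100000 strongest peaks were kept.

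Of the other intron 3 sites, IKZF1 +74.1 kb (chr7:50418034-50418808) had 78.5, 80.8 and 50.3 in wild type, 41.0, 0 and 0 in heterozygous and 0, 45.7 and 61.7 in homozygous libraries, so that the heterozygous values were below all wild type values and the homozygous ones overlapped both. IKZF1 +128.0 kb, in the last exon (exon 8, chr7:50472014-50472545), had 77.3, 82.4 and 45.6 in wild type, 34.5, 53.4 and 34.5 in heterozygous and 0, 13.4 and 61.5 in homozygous libraries, and the groups overlapped. IKZF1 +83.6 kb was found in 4 libraries of all 3 genotypes, with its highest value of 55 in homozygous library 2. The sites at +10.7 kb and +12.9 kb in intron 1 were found in wild type library 2 (53.1), and in wild type libraries 1 and 2 (39.0 and 44.1) and heterozygous library 1 (14.5). IKZF1 -7.7 kb was found in 1 library and IKZF1 +2.8 kb in 3, all below percentile 13.

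ZBTB7A, whose product represses fetal globin apart from BCL11A, lies at chr19:4043301-4066897 on the reverse strand. Its promoter, ZBTB7A +0.8 kb (chr19:4064884-4067350), was one of 2 promoter sites found in all 9 libraries, at 67.5, 32.3 and 75.6 in wild type, 74.4, 51.8 and 19.8 in heterozygous and 76.9, 70.0 and 78.3 in homozygous libraries. The homozygous values were high and even (75.1 ± 4.43, SD, n = 3) and the wild type ones spread around a mean of 58.5 ± 23.0, with overlap between the groups (exact permutation p = 0.346, adjusted p = 0.849). The genes whose promoter percentile followed that of ZBTB7A most closely over the 9 libraries, by mean absolute difference, were ZC3H8 (6.28 points) and TMUB2 (6.74 points). GFI1B was not compared in this way. By single peaks with a centre within 1 kb of a start it had a promoter peak in 8 libraries, without homozygous library 2.

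Both peaks of homozygous library 2 lay in the promoter site, and the other ZBTB7A sites were found in 1 to 3 libraries. ZBTB7A +8.6 kb in intron 1 (chr19:4057839-4058795) was in wild type library 3 (35) and homozygous libraries 1 and 3 (8.72 and 36.5), ZBTB7A +23.2 kb in homozygous library 3 (56.4) and ZBTB7A +31.0 kb in homozygous library 1 (12.4). No single ZBTB7A site was present in all 3 homozygous libraries and absent from wild type.

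**Figure D4:**
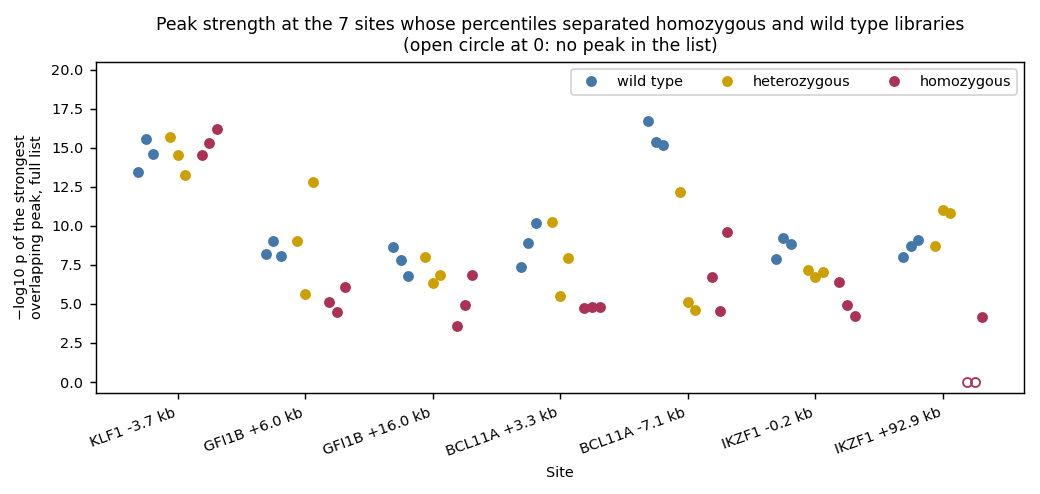
Strength of the strongest overlapping peak of the full list, as −log10 p, at the 7 sites whose percentiles did not overlap between homozygous and wild type libraries, 1 point per library and an open circle where the list has no peak. Homozygous points lie below the wild type points at GFI1B +6.0 kb, BCL11A +3.3 kb, BCL11A -7.1 kb, IKZF1 -0.2 kb and IKZF1 +92.9 kb, and meet them at KLF1 -3.7 kb and GFI1B +16.0 kb. The scale differs between lists: at the 50000th peak it was 5.49, 4.95 and 6.73 in homozygous and 6.03, 6.44 and 6.41 in wild type libraries.

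The partners, relatives and targets of these factors were read with the same test. Of 4 NFE2 partner and competitor genes (MAFF, MAFG, MAFK and BACH1), 15 relatives, 12 corepressor genes and 9 tested genes known to depend on KLF1, 0 passed the adjusted test. An unadjusted exact p of at most 0.05 was found for 2 relatives and 0 of the others, against 8.24% of all tested genes. Promoter peaks were present in all 9 libraries at 2 of the 4 partners, 10 of the 15 relatives, 9 of the 12 corepressor genes and 2 of the 10 KLF1-dependent genes. The share of all protein-coding genes was 44.9%. AHSP, the alpha-globin chaperone, the membrane genes EPB42 and SLC4A1, and ALAS2, the erythroid enzyme of haem synthesis, had no promoter peak among the strongest in any library. These were 4 of the 10 KLF1-dependent genes, and 31.6% of all protein-coding genes had none either. The median homozygous minus wild type difference was 0.5 peaks for the partners, 0.33 for the relatives, 0.0 for the corepressor genes and 0.0 for the KLF1-dependent genes, against 0.0 over all genes.

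The largest differences were at ANK1, the ankyrin of the red cell membrane (2.33 more peaks in homozygous libraries), and KLF2, a relative of KLF1 (2.0 more). The Ikaros relative IKZF2 had 2 peaks in each wild type and heterozygous library and 3, 4 and 3 in homozygous libraries, and IKZF3 had 0 in each wild type and heterozygous library and 2, 1 and 1 in homozygous libraries (exact permutation p = 0.0357 and adjusted p = 0.499 for both). Neither difference passed the adjusted test.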

How the data were processed

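ATAC-seq peak lists of 9 K562 libraries (3 genotypes, 3 libraries each, 100 bp single-end reads) were used. Per the submitters' processing notes, cutadapt, Bowtie2 2.2.9, Picard and MACS2 2.1.0 were used with hg19/GRCh37, and peaks were deposited per library. The settings of the peak caller are not given in the sources used here. The deposited lists give per peak the authors' fold enrichment (a ratio), −log10 p, −log10 q and a score, and hold no read counts. Many peaks had a fixed width of 500 bp, 17.2% to 19.2% of intervals joined several of them, and the offset column of the authors' deposited lists (its unit is other) served only to count the joined peaks. Centres of intervals stand for summits, and 1 alternative put the centre of the first joined peak, inferred from the fixed width, in their place.

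From these, the 50000 peaks of highest −log10 p on chromosomes 1 to 22 and X were kept per list and merged across libraries by at least 1 bp of overlap. Peak numbers per gene and percentiles per region were tested across all genes and regions with an exact permutation test (280 assignments), adjusted by Benjamini-Hochberg, in Python 3.11.15 (NumPy 2.4.6, pandas 2.3.3, SciPy 1.17.1), and the scripts were tested on simulated data. The number of sites that separated genotypes by presence or percentile was read against the share of all regions that did so. Sequences are from the GRCh37 genome, and sites from GENCODE release 44 on that build.

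The members, lists and tests were chosen with earlier results of these data known. Named were all 6 genes, each promoter site, the BCL11A elements, the sites that separated genotypes or did not overlap, the 3 distal sites per gene of highest median percentile, the partner genes of largest difference, and the 2 genes whose promoter percentiles were most like those of a member with a promoter peak in all 9 libraries. IKZF2 and IKZF3 were named after their values were seen. Alternatives covered the number of peaks kept, the ranking, a −log10 q minimum of 5, the overlap, the summit in place of the centre, the flank, the promoter window, left-out libraries and a replicate block.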

Additional observations from a re-analysis of the deposited data

How the results depend on the processing

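In 19 of the 21 alternatives peak numbers were tested again, and 0 members passed the adjusted test. That outcome was close to fixed beforehand, since so few assignments can hardly give a small adjusted p over all genes. Sites separating homozygous and wild type (3) became 1 with 20000 strongest peaks, 5 with a −log10 q minimum of 5, 5 when ranked by fold enrichment, 5 without wild type library 3 and heterozygous library 1, and 3 to 7 when single libraries were left out. For homozygous and heterozygous (1) the number was 4 in full lists, 2 with the q minimum, 2 by fold enrichment and 1 to 3 with single libraries left out, and for heterozygous and wild type (0) it was 1 in full lists, 1 with the q minimum, 3 without the pair that has intervals in common and 0 to 2 with single libraries left out. Sites whose homozygous and wild type percentiles did not overlap (7) were 2 with 20000 peaks, 12 without that pair and 7 to 13 with single libraries left out. Sites in all 9 libraries (6) were 3 with 20000 peaks, 16 with 100000 and 25 in full lists. Promoter sites (10) were 2 with 20000 peaks. Enhancer windows with a peak (0 of 27) were 2 with 100000 peaks and 6 in full lists. The homozygous minus wild type difference in peak number turned at NFE2 (0.33 with 20000 peaks, 0.67 with 100000 and 0.67 in full lists), at GFI1B (0.33 with 20000 and 1.67 in full lists) and at BCL11A (2.67 with 100000, 1.0 without homozygous library 2, with -2.0 the lowest when a single library was left out, and 0.42 with lists that have intervals in common averaged into 7 sources). IKZF1 stayed negative (-7.0 to -0.67) and ZBTB7A positive (0.33 to 3.33) under the 19 alternatives run on peak numbers. The cause was not tested, and fewer libraries make separation easier by construction. The share of all regions was not taken again under these alternatives.

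With a replicate block, 36 assignments remained (smallest exact p 0.0278) and 0 members passed. Same-numbered libraries correlated at -0.305 to 0.178 and others at -0.315 to 0.414, and 4 of 9 libraries correlated best with their own number. These values include the lists with intervals in common and cannot decide whether the numbers pair the libraries. Non-overlap and promoter counts were not run on full lists. Over 6 choices of peaks, IKZF1 +92.9 kb kept its separation in 4, GFI1B +6.0 kb and BCL11A +3.3 kb in 2 each, and BCL11A -7.1 kb kept its non-overlap in 6. Read depth is unknown, so absence means only that a peak ranked below the limit of its list.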
